A study of Mus musculus with 58 samples.

Results

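Spp1, the gene of osteopontin, and 8 genes of the receptors that osteopontin binds (Cd44, Itgav, Itgb1, Itgb3, Itgb5, Itga4, Itga5 and Itga9) were followed through bulk RNA sequencing of sorted adipose stem cells (ASC). These 9 genes, of 56953 in the count table and 12465 that had enough reads to be tested, were taken by symbol. Spp1 was chosen by its measured level in these same libraries, so its values are given as a description without a test. The receptors were added as its known binding partners. All mice were C57BL6/J, supplied by Charles River, and the cells came from inguinal white adipose tissue (iWAT), a fat depot under the skin. Males were castrated or females ovariectomized at 4 weeks of age, controls of both sexes were age matched, and all mice were fasted before termination at 10 weeks. Cells negative for the leukocyte marker CD45 and the endothelial marker CD31 and positive for CD34 were sorted into ASC1 (DPP4-) and ASC2 (DPP4+). There were 7 ASC1 and 8 ASC2 libraries labelled control male, 8 and 8 labelled castrated male, 8 and 8 labelled control female, and 3 and 8 labelled ovariectomized female. Each library is named by its group and the letter in its label.

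Osteopontin is a secreted, heavily phosphorylated protein of bone matrix and of inflamed tissue, where it acts as a ligand that cells adhere to and migrate on. Most of its integrin receptors, which pair the αv subunit (Itgav) with a β subunit (Itgb1, Itgb3 or Itgb5) or the α5 subunit (Itga5) with β1, bind an arginine-glycine-aspartate motif. The α4 and α9 subunits (Itga4 and Itga9), also paired with β1, bind the residues directly behind that motif, which thrombin cleavage exposes, and CD44 is a hyaluronan receptor that also takes osteopontin as a ligand. In adipose tissue osteopontin is best known as a product of macrophages in obesity.

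The part of Spp1 that these receptors read is shown because it ties the ligand to its 2 integrin classes. In the GENCODE M21 annotation Spp1 lies on the plus strand of chromosome 5, 104435118 to 104441050 of GRCm38. The stretch below is coding sequence from exon 7 of the 8 exons of its transcript with the longest coding sequence, at chr5:104439457-104439528 on the plus strand. Capitals mark first the 9 bases that encode arginine-glycine-aspartate (residues 145 to 147 of 295) and then the 21 bases of the site for the α4 and α9 integrins (residues 148 to 154), with no base between them.
Spp1 integrin sites: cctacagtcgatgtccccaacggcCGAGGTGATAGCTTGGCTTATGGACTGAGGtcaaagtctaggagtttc

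Levels are given in CPM, the usual read count scaled to a common library total, with each library's size corrected by TMM factors. The libraries held 106564 to 1421522 reads, with a median of 682406.5. Before any result, the 3 libraries labelled ovariectomized female ASC1 (L, N and P) stood apart from the other 55. The fibroblast genes Pdgfra, Col1a1, Dcn and Lum together made up 43150 to 45111 CPM there and 3024 to 13971 CPM in the others. The 14 macrophage genes together made up 54.9 to 136 CPM against 651 to 7212 CPM. The stem cell surface genes Cd34, on which the cells were sorted, and Ly6a, on which they were not, were also high there. These 2 genes together made up 4314 to 4610 CPM, against 557 to 1476 CPM in control female ASC1. Of the other 55 libraries, which ran from 557 to 5370 CPM, only control female ASC2 library E, at 5370 CPM, lay above the 3. L, N and P had reads for 11634, 9698 and 9122 genes, against a median of 13624.5 over all 58 libraries. L held 1114333 reads, and ovariectomized female ASC2 library K had 15024 genes at 1118876 reads. Ovariectomized female ASC2 library P, the shallowest, had 9336 genes at 106564 reads. The part of gene detection in the low values of L, N and P was not tested. In addition, the transcripts of the sex chromosomes (Xist against 4 genes of the Y chromosome, with a 3-fold margin) fit the labelled sex in 30 of 58 libraries. All 8 castrated male ASC2, all 8 ovariectomized female ASC2 and all 3 ovariectomized female ASC1 libraries fit, but 0 of 8 castrated male ASC1, 2 of 8 control female ASC1, 2 of 8 control female ASC2, 3 of 7 control male ASC1 and 4 of 8 control male ASC2 libraries did. Groups are therefore named by their labels, and values of the fitting libraries alone are given where they move a result.

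Spp1 was among the most abundant transcripts of these cells. In the 55 libraries outside ovariectomized female ASC1 it took 0.434 to 2.13% of all reads (median 1.25%), ranked first among all genes in 34 of them, within the first 5 in 45 and never below rank 16. In the 3 ovariectomized female ASC1 libraries it ranked between 2891 and 5418.

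By group, Spp1 was highest in control male ASC2 (lowest 9632, median 14968, highest 21940 CPM) and castrated male ASC2 (8874, 14809 and 19202 CPM). Control male ASC1 (11071, 12876 and 17083 CPM) and control female ASC1 (8110, 12012 and 18077 CPM) lay at a similar level. Control female ASC2 (4476, 11209 and 19113 CPM) and ovariectomized female ASC2 (5823, 9905 and 15893 CPM) spread more widely and overlapped all groups above them. Castrated male ASC1 had the lowest median outside ovariectomized female ASC1 (5248, 6162 and 14138 CPM). As means, these 7 groups ran from 14640 ± 3697 CPM (SD, n = 8) in control male ASC2 to 7795 ± 3728 CPM (n = 8) in castrated male ASC1, and the difference between any 2 neighbours in this order was smaller than the larger of their SDs. Ovariectomized female ASC1 came last, at 40.5 ± 19.3 CPM (n = 3), where the highest library was at 53.7 CPM and the lowest of the other 55 at 4476 CPM.

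The 3 ovariectomized female ASC1 libraries had Spp1 at 53.7 CPM in L, 18.3 CPM in N and 49.5 CPM in P. These values rest on 47, 4 and 8 reads, and exact (Clopper-Pearson) 95% intervals reached from 31.0 to 56.1, from 4.25 to 39.9 and from 18.3 to 83.6 CPM of the unscaled library totals. The intervals cover counting error only. Spp1 thus had reads in all 3 libraries, and the intervals of the shallower N and P overlapped that of L.

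Several groups held libraries at 2 levels of Spp1. Among castrated male ASC1, libraries I and J were at 13398 and 14138 CPM, and K to P lay between 5248 and 6636 CPM. Among ovariectomized female ASC2, I to L lay between 5823 and 6575 CPM and M to P between 13235 and 15893 CPM. Among control female ASC2, C, D and E were at 4476, 5739 and 6884 CPM, and the other 5 libraries lay between 10477 and 19113 CPM. Group means of Spp1 therefore stand for mixtures of both levels, and the plot of Spp1 by library shows the gaps.

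**Figure D1:**
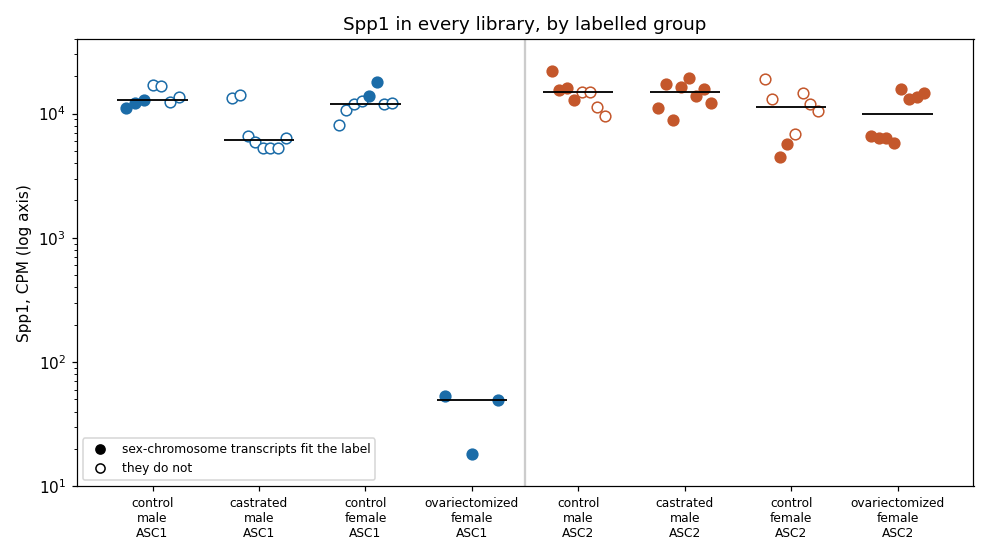
Spp1 in each of the 58 libraries (CPM, log axis) by labelled group, ASC1 on the left and ASC2 on the right. Black lines are group medians, and open circles mark libraries whose sex-chromosome transcripts go against the label. The 3 ovariectomized female ASC1 libraries sit between 18.3 and 53.7 CPM and all others at or above 4476 CPM.

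Spp1 values entered the choice of the gene, so the fold changes of its contrasts carry a standard error (SE) and no p. Castration came with a log2 fold change of -0.82 (SE 0.25) in ASC1, where 0 of 8 castrated libraries fit the male label, and of -0.03 (SE 0.24) in ASC2. The 2 castration effects differed by 0.78 (SE 0.35). Ovariectomy came with -8.19 (SE 0.55) in ASC1 and -0.07 (SE 0.24) in ASC2. Leaving out 1 ovariectomized library at a time kept the ASC1 value between -8.60 and -7.85.

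Between control males and control females Spp1 differed by 0.14 (SE 0.25) in ASC1 and by 0.44 (SE 0.24) in ASC2, and between ASC2 and ASC1 by 0.09 (SE 0.25) in males and -0.20 (SE 0.24) in females. In all 4 the libraries of both groups overlapped. Several of these values rested on which libraries were kept. With only the libraries that fit their sex label, which left 2 control female libraries per population, the male to female difference became -0.40 (SE 0.41) in ASC1 and 1.71 (SE 0.43) in ASC2. The difference between ASC2 and ASC1 became 0.45 (SE 0.35) in males and -1.67 (SE 0.46) in females, and that between ovariectomized and control female ASC2 became 1.05 (SE 0.39). The 2 control female ASC2 libraries that fit were C and D, at 4476 and 5739 CPM, and the 2 of ASC1 were E and F, at 13981 and 18077 CPM.

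The receptor genes were far below their ligand. Per kb of the longest protein-coding transcript, used as a rough scale between genes, Spp1 averaged 7943 ± 2811 CPM per kb over the 55 libraries (SD). Itgb1, the β1 subunit common to many integrins, averaged 96.3 ± 23.7, Itga5 56.0 ± 19.5 and Itgb5 55.7 ± 37.6 CPM per kb. Cd44 averaged 19.9 ± 8.38, Itgb3 12.9 ± 6.36 and Itgav 8.74 ± 2.72 CPM per kb. Itga9, at 3.06 ± 2.17, and Itga4, at 0.302 ± 0.413 CPM per kb, were lowest. Itga5 and Itgb5, and likewise Itgb3 and Itgav, lay closer together than their spread over libraries, as the plot of levels per length shows. In the 3 ovariectomized female ASC1 libraries Spp1 was at 26.9 ± 12.8 CPM per kb, below Itgb1 at 48.8 ± 8.75 and beside Cd44 at 17.9 ± 6.89 CPM per kb, so that the ligand was not above all of its receptors there. Without division by length, mean Spp1 was at 40.5 CPM there and Cd44 at 100 CPM.

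**Figure D2:**
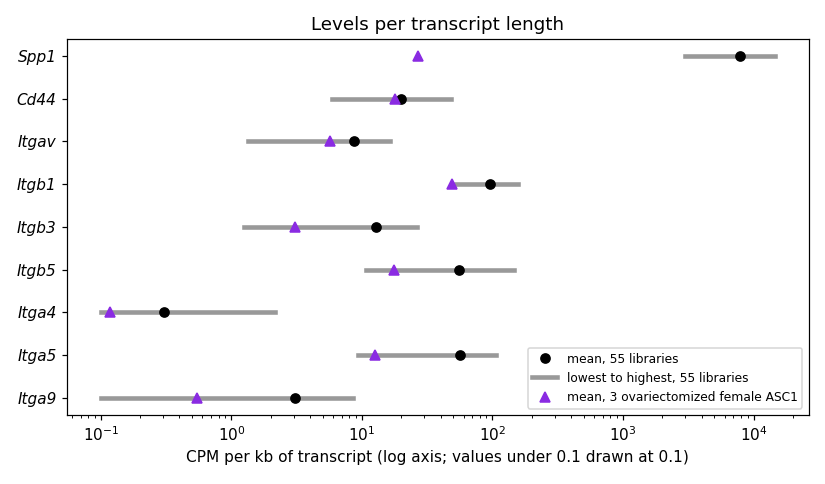
Levels of the 9 genes per kb of their longest protein-coding transcript (CPM per kb, log axis). Black points and grey bars are the mean and range over 55 libraries, and triangles are means of the 3 ovariectomized female ASC1 libraries. Spp1 averages 7943 CPM per kb in the 55 libraries and Itgb1, the highest receptor gene, 96.3.

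Each receptor gene was tested by edgeR's quasi-likelihood method, with Benjamini-Hochberg adjustment over all 12465 genes and a threshold of 0.05. The first question was whether removing the testes or ovaries changed them.

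In the edgeR fit over all 58 libraries, ovariectomy in ASC1 was the surgery comparison in which receptor genes passed, and other fits that called a receptor gene elsewhere are given with those comparisons. Of the 8 receptor genes 4 were lower and 0 higher in the 3 ovariectomized libraries, where 34.8% of all genes passed the test, 22.1% of all genes in the lower direction. The median log2 fold change of the receptors was -1.40, against -0.34 over all genes tested. Scaling by library size alone moved the median of all genes to -0.66 and the share of calls that were lower from 63.5% to 78.9%, and the 4 receptor genes stayed lower under it. Since these are the libraries that stood apart, less RNA of a gene per cell and fewer cells of a type that expresses it cannot be told apart here.

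The α5 subunit gene Itga5 was at 51.4, 59.6 and 55.7 CPM in the ovariectomized libraries L, N and P, against a lowest of 152, a median of 201 and a highest of 471 CPM in control female ASC1, with no overlap. Its log2 fold change was -2.27 (SE 0.43, adjusted p = 2.87e-05, edgeR). Itgb1, its β1 partner, was at 213, 197 and 149 CPM in the same libraries and between 317 and 454 CPM in the controls, again with no overlap (-1.07, SE 0.22, adjusted p = 1.24e-04, edgeR). Both genes of the α5β1 fibronectin receptor thus fell.

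Itgb5, the β5 subunit that pairs with αv, was at 42.3, 32.1 and 99.1 CPM in L, N and P and between 50.1 and 381 CPM in the controls, so the groups overlapped (-1.98, SE 0.57, adjusted p = 0.00515, edgeR). Itga9 was at 6.86 and 4.58 CPM in L and N and had no read in P, against 8.56 to 53.1 CPM in the controls (-2.34, SE 0.92, adjusted p = 0.0409, edgeR). The calls of Itgb5 and Itga9 were the less stable ones. Without library L they had an adjusted p of 0.0645 and 0.125, and without N or P that of Itga9 was 0.0890 or 0.102. With only libraries that fit their sex label, Itga9 had a log2 fold change of -0.91 (SE 0.94, adjusted p = 0.497). Against the 2 control female ASC1 libraries that fit their sex label, E and F, Itgb5 had a log2 fold change of -0.04 (SE 0.56, adjusted p = 0.978), since E and F were at 60.0 and 50.1 CPM.

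Cd44 was at 55.7 to 126 CPM in the ovariectomized libraries and 72.7 to 222 CPM in the controls (-0.20, SE 0.36, adjusted p = 0.706). Itgav was at 31.0 to 57.2 against 32.8 to 75.0 CPM (-0.56, SE 0.32, adjusted p = 0.172), and Itgb3 at 6.86 to 27.5 against 7.26 to 116 CPM (-1.73, SE 0.75, adjusted p = 0.0672). Itga4 had a read in 1 of the 3 libraries and in 5 of the 8 controls, too few to show a difference at this depth.

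**Figure D3:**
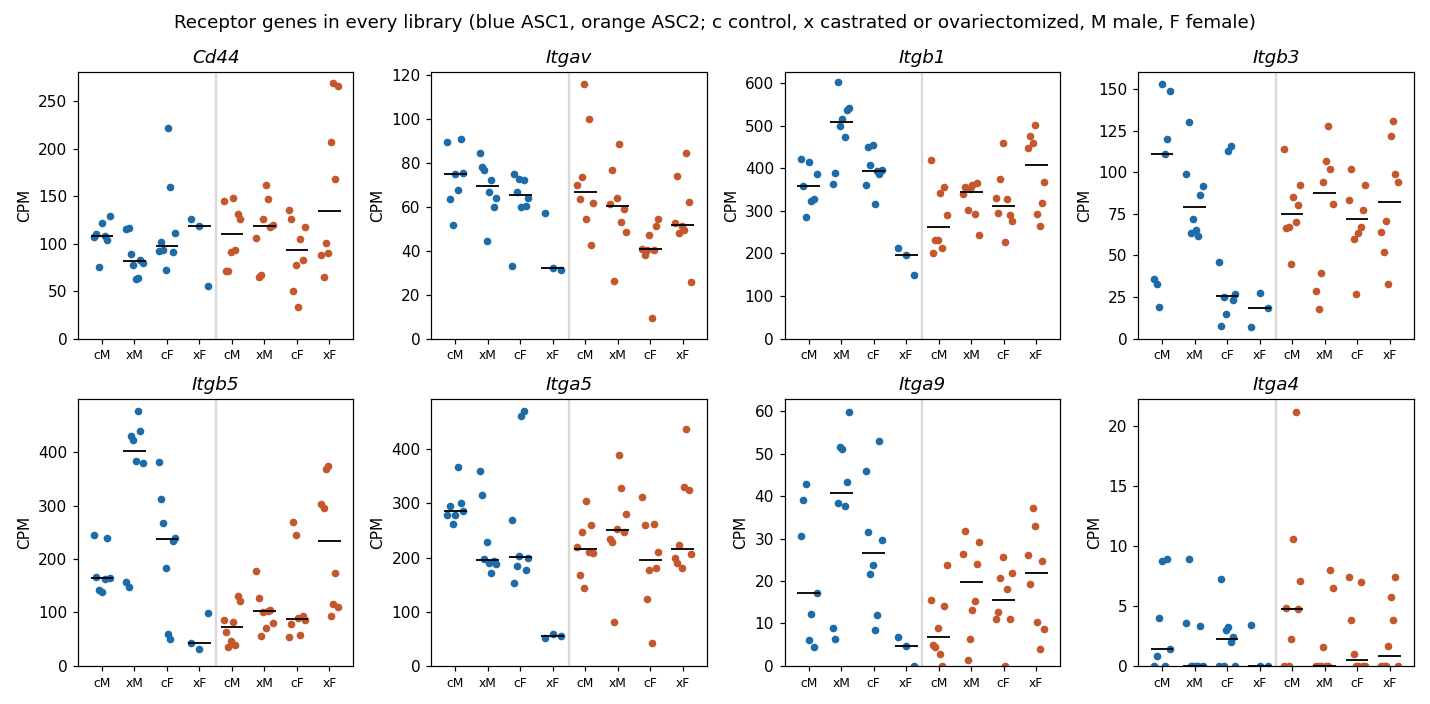
Each receptor gene in every library (CPM), with group medians as black lines, ASC1 in blue and ASC2 in orange. Labels give control (c) or castrated and ovariectomized (x) males (M) and females (F). Itga5 lies between 51.4 and 59.6 CPM in ovariectomized female ASC1 and at or above 152 CPM in control female ASC1, and Itgb5 splits into separate levels within several groups.

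In ASC2 ovariectomy changed 0 of the 8 receptor genes by edgeR, where 2.10% of all genes passed. Of the 8, 7 had values above 0 and 3 an unadjusted p below 0.05, which 1653 of all 12465 genes had. DESeq2 also called 0. Cd44 had 64.3, 135 and 269 CPM as lowest, median and highest in ovariectomized females and 33.2, 93.7 and 135 CPM in controls (log2 fold change 0.72, SE 0.26, adjusted p = 0.137, edgeR). Itgb5 had 92.7, 234 and 374 CPM against 53.7, 87.7 and 269 CPM (0.93, SE 0.34, adjusted p = 0.152), and Itgav 25.7, 51.7 and 84.6 against 9.50, 40.6 and 54.3 CPM (0.50, SE 0.22, adjusted p = 0.285). All 3 overlapped between the groups. In the same comparison 5 of 6 tested mammary epithelial genes were higher in the ovariectomized libraries, and their part in the receptor values was not tested. Itgb5 was called without the filter on low counts (adjusted p = 0.0366), and its value became -0.11 (SE 0.41) when only the control females C and D, at 269 and 245 CPM, were kept.

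The ovariectomy effects on the receptors were also compared between the populations, a test added after the data had been seen. In that test 34.8% of all genes passed, 22.2% in the higher direction, and the median of all genes was 0.40. For 5 of 8 receptor genes the effect in ASC2 was higher than that in ASC1. They were Itga5 (2.68, SE 0.49, adjusted p = 1.89e-05, edgeR), Itgb1 (1.35, SE 0.27), Itgb5 (2.91, SE 0.67), Itga9 (2.86, SE 1.04) and Itgav (1.06, SE 0.39). All 5 rest on the same 3 ovariectomized ASC1 libraries. Leaving out N or P left 3 of 8 called, as did keeping only libraries that fit their sex label.

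Between libraries labelled castrated and control male 0 of the 8 receptor genes passed in either population by edgeR, where 2.36% of all genes passed in ASC1 and 6.98% in ASC2. Of the ASC1 libraries 0 of 8 castrated and 3 of 7 control fit the male label, and of the ASC2 libraries 8 of 8 and 4 of 8. In ASC1, where 1622 of all 12465 genes had an unadjusted p below 0.05, 2 receptor genes did, and DESeq2 called 1. These were Itgb5, at 148, 403 and 477 CPM as lowest, median and highest in castrated and 139, 165 and 245 CPM in control males (0.99, SE 0.35, adjusted p = 0.138, edgeR), and Itgb1, at 363, 509 and 604 against 285, 359 and 423 CPM (0.45, SE 0.15, adjusted p = 0.121, edgeR; 0.0347 by DESeq2). When only the 2 groups were fitted, both were called, with adjusted p of 0.0154 for Itgb5 and 0.0404 for Itgb1. The 6 castrated libraries with the lower Spp1, K to P, were the ones with Itgb5 between 379 and 477 CPM, while I and J were at 156 and 148 CPM, within the range of the controls. In these ASC1 groups the macrophage genes also moved, 6 of 13 tested being lower after castration, and 3 of 5 tested mesothelial genes (of the list Msln, Upk3b, Wt1, Lrrn4 and Upk1b) were higher. The 14 macrophage genes together were at 711 to 1080 CPM in castrated libraries and 669 to 765 CPM in control E to H. Only control B, C and D, at 5834 to 7128 CPM, lay above the castrated range. The mesothelial genes together were at 91.8 to 180 CPM in K to P, the libraries with high Itgb5, at 0 and 2.56 CPM in I and J, and at 0 to 50.8 CPM in the controls. The part of either list in the receptor values was not tested.

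In ASC2, where 2732 of all 12465 genes had an unadjusted p below 0.05, 1 receptor gene did, and DESeq2 called 0. It was Itga4, at 0 to 7.99 CPM in castrated and 0 to 21.2 CPM in control males (-1.83, SE 0.90, adjusted p = 0.222, edgeR), a gene with no read in 5 of 8 castrated libraries. Itgb1 was at 326 ± 43.4 CPM in castrated and 285 ± 79.4 CPM in control males (SD, n = 8 and 8), and Cd44 at 114 ± 34.3 and 110 ± 31.4 CPM. For none of the 8 receptors did the castration effect differ between ASC2 and ASC1 by edgeR, where 2.41% of all genes did. An unadjusted p below 0.05 was found for 0 of the 8 receptors and for 1884 of all 12465 genes. DESeq2 called 0 of the 8. The largest such difference after Itga4 was that of Itga5, at 0.56 with an interval from -0.16 to 1.28.

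The second question was whether libraries labelled control male and control female differed. In ASC1, 3 of 7 male and 2 of 8 female libraries fit their label, so the comparison is one of labels. There 0 of 8 receptor genes differed by edgeR and by DESeq2, where 0.289% of all genes passed by edgeR. An unadjusted p below 0.05 was found for 1040 of all 12465 genes and for 1 receptor gene. This was Itgb3, the β3 subunit of the vitronectin receptor, at 18.9, 111 and 153 CPM as lowest, median and highest in males and 7.26, 25.7 and 116 CPM in females (0.91, SE 0.40, adjusted p = 0.517, edgeR). Its value turned to -1.99 (SE 0.60, adjusted p = 0.0898) with only the libraries that fit their sex label, a fit in which Itgb1, Itgb5, Itga5 and Itga9 also changed sign. The libraries of Itgb3 lay at separate levels, with B, C and D of the males at 35.7, 32.8 and 18.9 CPM and E to H between 111 and 153 CPM, and with E and F of the females at 113 and 116 CPM and the other 6 between 7.26 and 45.9 CPM.

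In ASC2 1 of 8 receptor genes was higher in libraries labelled male, where 6.46% of all genes passed. Itgav, the αv subunit shared by 3 of the osteopontin receptors, was at 42.5, 66.8 and 116 CPM in males and 9.50, 40.6 and 54.3 CPM in females (0.83, SE 0.21, adjusted p = 0.0104, edgeR). The groups overlapped. The call was lost when only the 2 groups were fitted (adjusted p = 0.0859) and with only the 4 male and 2 female libraries that fit their label (0.88, SE 0.38, adjusted p = 0.208). In the latter fit Itgb5 was called instead, lower in males by -2.13 (SE 0.45, adjusted p = 0.00721), with 35.1 to 85.4 CPM in 4 male and 245 and 269 CPM in 2 female libraries. In all 16 libraries its value was -0.69 (SE 0.35, adjusted p = 0.245).

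The third question was how ASC2 differed from ASC1. In control males 1 of 8 receptor genes was lower in ASC2, where 12.2% of all genes passed. Itgb5 was at 35.1, 72.7 and 131 CPM in ASC2 and 139, 165 and 245 CPM in ASC1, with no overlap (-1.23, SE 0.36, adjusted p = 0.0146, edgeR). The call held with only the libraries that fit their label (-1.67, adjusted p = 0.0105), where Itga9 was called as well (-2.20, SE 0.59, adjusted p = 0.0151). In all libraries Itga9 was at 9.30 ± 7.96 CPM in ASC2 (SD, n = 8) and 21.8 ± 15.7 CPM in ASC1 (n = 7), a difference that did not pass (-1.26, SE 0.51, adjusted p = 0.0945).

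In control females 0 of 8 receptor genes passed by edgeR and 1 by DESeq2, where 6.14% of all genes passed by edgeR. An unadjusted p below 0.05 was found for 2300 of all 12465 genes and for 2 receptor genes. Itgav, at 40.3 ± 13.7 CPM in ASC2 and 62.9 ± 13.4 CPM in ASC1 (SD, n = 8 and 8), missed the threshold narrowly (-0.67, SE 0.22, adjusted p = 0.0505, edgeR), and passed by DESeq2 with 0.0192. Itgb5 was at 53.7, 87.7 and 269 CPM in ASC2 and 50.1, 237 and 381 CPM in ASC1 (-0.78, SE 0.34, adjusted p = 0.184). With the 2 libraries per population that fit their label it reversed to 2.19 (SE 0.57, adjusted p = 0.0435), so the direction for Itgb5 in females rests on the choice of libraries.

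**Figure D4:**
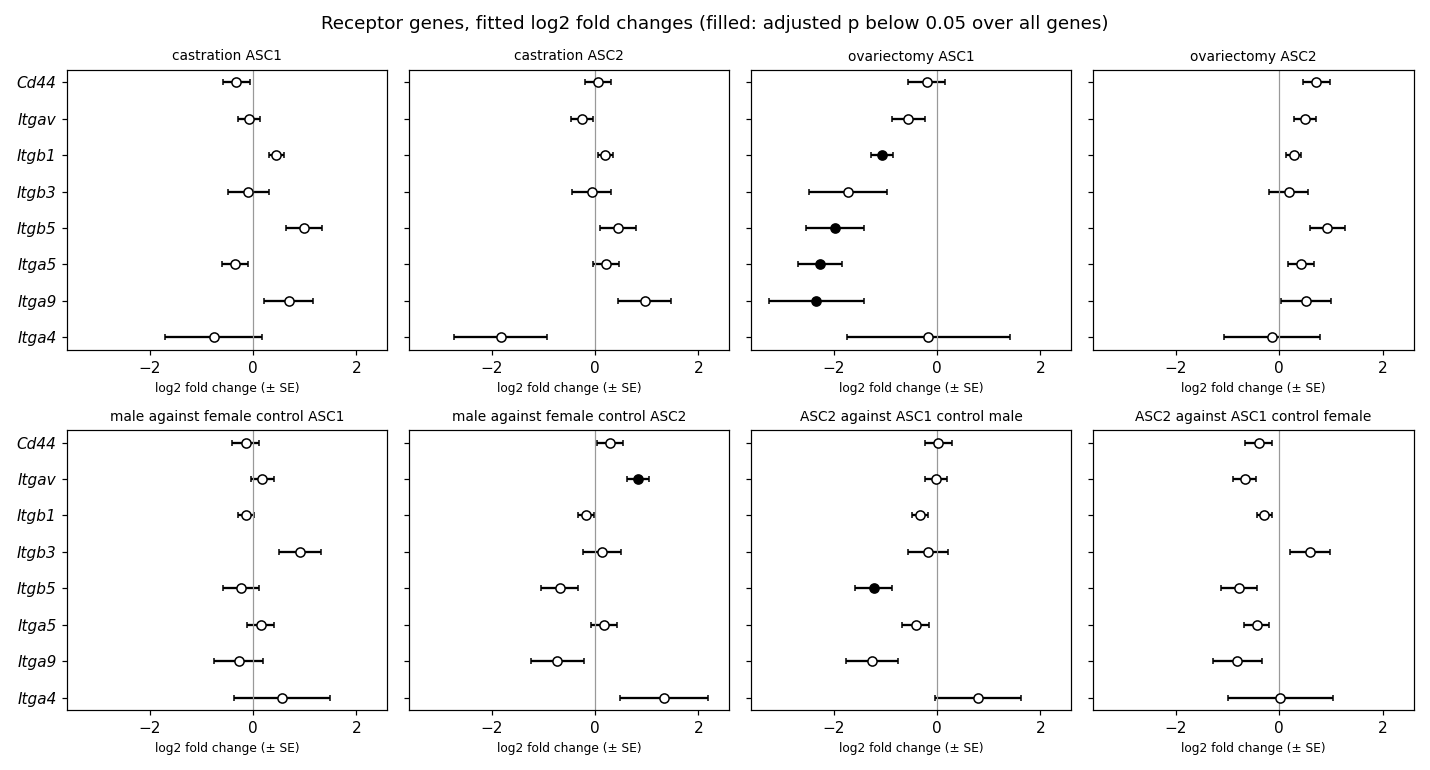
Fitted log2 fold changes of the 8 receptor genes with SE in 8 comparisons. Filled points passed an adjusted p of 0.05 over all genes: Itgb1, Itgb5, Itga5 and Itga9 with ovariectomy in ASC1, Itgav between control males and females in ASC2, and Itgb5 between ASC2 and ASC1 of control males.

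Within the libraries, Itgb5 ran opposite to Spp1. Over the 55 libraries Pearson's r between their log2 values was -0.72 and Spearman's rho -0.71, and r was -0.73 after group means were removed. This is a description over libraries that share groups and preparation. The ovariectomized female ASC2 libraries show it: I to L, with Spp1 up to 6575 CPM, had Itgb5 between 295 and 374 CPM, and M to P, with Spp1 from 13235 CPM, had it between 92.7 and 173 CPM. Control female ASC2 library E was an exception, with Spp1 at 6884 and Itgb5 at 90.2 CPM. Cd44 and Itga5 ran with Spp1 (r of 0.58 and 0.52 over the 55 libraries, 0.66 and 0.61 after group means were removed), and Itgb1 ran against it (-0.50 and -0.35). Itgav, at 0.27 in both, showed little relation. The sum of 8 mural cell genes was 2191 to 2530 CPM in castrated male ASC1 K to P and 719 to 960 CPM in I and J, but in ovariectomized female ASC2 it was 2992 to 3654 CPM in I to L and 1333 to 3110 CPM in M to P. Most of this sum came from Acta2 and Tagln. In castrated male ASC1 these averaged 1073 and 881 CPM, and each other gene of the list at most 45.4 CPM. The sum of the 5 mesothelial genes followed the split in these groups. It was 41.2 to 82.5 CPM in ovariectomized female ASC2 I to L and 0 to 9.16 CPM in M to P, and in control female ASC2 it was 43.3 and 37.8 CPM in C and D and 0 to 3.17 CPM in the other 6, E included. In control female ASC1 it was 3.21 and 0 CPM in E and F, which had the lowest Itgb5, and 26.2 to 104 CPM in the other 6. In castrated male ASC2 it was 78.9 and 79.0 CPM in I and J, with Itgb5 at 177 and 126 CPM and Spp1 at 11099 and 17205 CPM, and 0 to 4.79 CPM in the others. The part of the mural and mesothelial genes in the pattern was not tested.

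**Figure D5:**
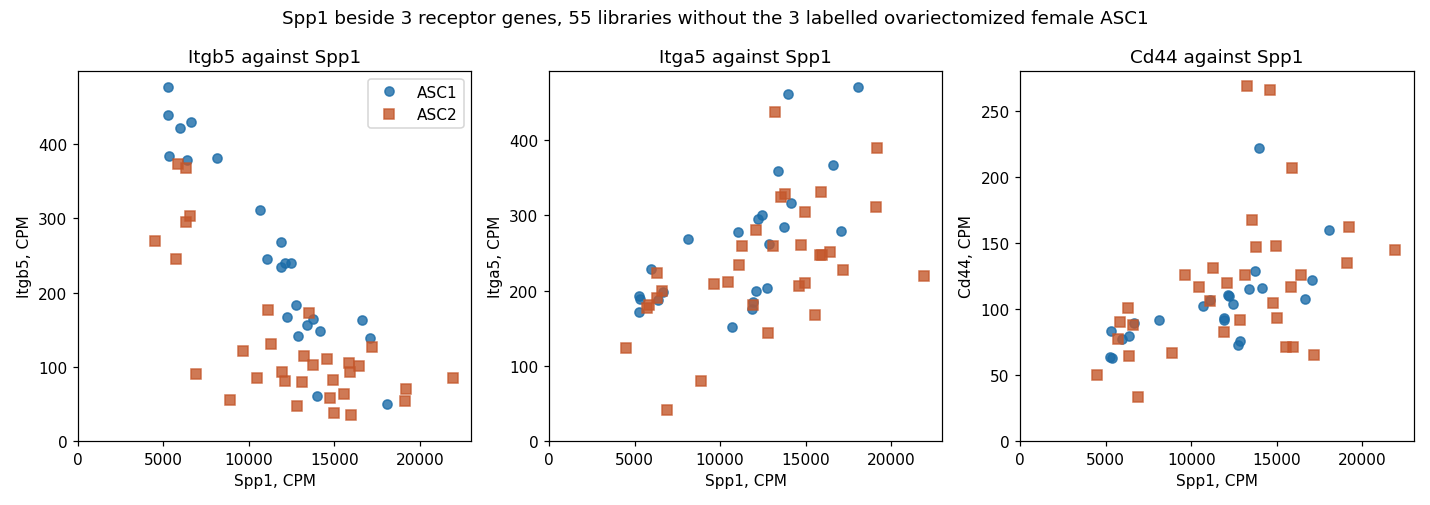
Itgb5, Itga5 and Cd44 against Spp1 (CPM, both axes linear from 0) in 55 libraries, ASC1 as circles and ASC2 as squares. The highest Itgb5 value, 477 CPM, is in a library with Spp1 at 5248 CPM, while Itga5 and Cd44 tend to be higher where Spp1 is higher.

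The genes whose pattern was most like that of Spp1 were taken as the 5 with the highest Pearson r on log2(CPM + 1) among 10487 others with a mean of at least 5 CPM. Over all 58 libraries these were Ptprn (0.96), a protein of secretory granules, and the mitotic genes Kif20a (0.96), Tpx2 (0.96), Ccnb1 (0.95) and Aurka (0.95). Over the 55 libraries without ovariectomized female ASC1 the same 5 were at 0.59 to 0.73, so their rank rests largely on the 3 libraries. Ptprn for instance had no read there and group means of 145 to 244 CPM elsewhere. After group means were removed, the nearest genes were the monocyte-attracting chemokines Ccl7 (0.88) and Ccl2 (0.86), the caveolar gene Cav1 (0.84), the mitochondrial ADP/ATP carrier Slc25a5 (0.83) and the RNA helicase gene Ddx39 (0.81). Over the 55 libraries these 5 had r of 0.74 to 0.88 and rho of 0.75 to 0.89. Ccl7 was at 73.4 to 111 CPM in the 3 ovariectomized female ASC1 libraries and had group medians of 254 to 725 CPM elsewhere. Ccl2, Slc25a5 and Ddx39 also had their lowest group median there. Cav1 went the other way, at 275 to 462 CPM there and group medians of 84.9 to 399 CPM elsewhere. Its r with Spp1 over all 58 libraries was 0.09.

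Genes around the ligand and its receptors were counted in lists written with earlier results of these data known. The 4 relatives of Spp1 in its gene cluster on chromosome 5 (Ibsp, Dmp1, Dspp and Mepe) had too few reads to be tested, so among them Spp1 alone was expressed at a testable level.

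Of 13 tested genes of other integrins, 5 were lower with ovariectomy in ASC1 and 0 higher, where 22.1% of all genes were lower (median -2.40, against -0.34 for all genes). They were led by the leukocyte integrin genes Itgb2, at 4.13 ± 7.15 CPM in ovariectomized (SD, n = 3) and 73.7 ± 37.8 CPM in control females (n = 8, adjusted p = 1.69e-04, edgeR), and Itgam, which had no read in the 3 libraries and 47.4 ± 24.9 CPM in controls (adjusted p = 7.25e-04). With no read, the 3 libraries together allow up to 1.92 CPM of their summed reads (3 reads). Itgb2 was also lower in ASC1 labelled castrated, where 0 of 8 libraries fit the male label (27.4 ± 7.12 against 96.7 ± 93.5 CPM, log2 fold change -1.84, SE 0.43, adjusted p = 0.00888, edgeR). Itgam was higher with castration in ASC2, where 4 of 8 control libraries fit the male label (means of 43.8 and 12.9 CPM, 1.73, SE 0.51, adjusted p = 0.0268, edgeR). The macrophage genes moved the same way in each of these comparisons, with 10, 6 and 5 of 13 tested passing, and their part was not tested. In control male ASC1 the macrophage sum was high in B, C and D only. Itga3, a laminin receptor gene, rose with ovariectomy in ASC2 (15.6 ± 10.4 against 1.49 ± 1.25 CPM, adjusted p = 6.96e-04, edgeR). In that comparison 5 of 6 tested mammary epithelial and 2 of 7 tested mural genes were also higher, and their part was not tested. With only libraries that fit their sex label, 3 genes in place of 262 passed there.

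Of 12 tested genes of other integrin ligands, 3 rose and 4 fell with ovariectomy in ASC1, where 12.7% of all genes rose and 22.1% fell. Vtn, the gene of vitronectin, was at 291 ± 115 CPM in ovariectomized (SD, n = 3) against 10.3 ± 3.70 CPM in control females (n = 8, 4.83, SE 0.46, adjusted p = 1.74e-12, edgeR), and Fn1, of fibronectin, at 615 ± 118 against 5313 ± 1935 CPM (-3.11, SE 0.37, adjusted p = 7.82e-10). Thbs1, of thrombospondin, fell from 1028 ± 370 to 44.0 ± 22.0 CPM (adjusted p = 3.94e-08), while Postn, of periostin, rose from 545 ± 119 to 1514 ± 536 CPM (adjusted p = 4.09e-04). In ASC1 labelled castrated, where 0 of 8 libraries fit the male label, Mfge8, of an RGD protein of apoptotic cell uptake, was at 1095 ± 352 against 598 ± 104 CPM (0.87, SE 0.21, adjusted p = 0.0113, edgeR). Thbs1 was there at 1685 ± 710 against 714 ± 111 CPM (1.24, SE 0.34, adjusted p = 0.0296). Vtn was there lower (5.75 ± 4.84 against 22.1 ± 11.6 CPM, adjusted p = 0.0101). Thbs1 was also higher with ovariectomy in ASC2 (2069 ± 736 against 929 ± 792 CPM, adjusted p = 0.0387).

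Of 10 tested genes of hyaluronan, the other ligand of CD44, 2 were higher and 0 lower in ASC2 than in ASC1 of control males, where 6.87% of all genes were higher. In control females 2 were higher and 1 lower, where 3.53% and 2.61% of all genes were. Has1, a hyaluronan synthase, was at 164 ± 85.3 CPM in ASC2 and 5.43 ± 1.80 CPM in ASC1 of control males (4.83, SE 0.57, adjusted p = 5.88e-09, edgeR), and at 135 ± 85.1 against 12.1 ± 8.64 CPM in control females (3.40, SE 0.50, adjusted p = 1.11e-06). Tnfaip6, a hyaluronan-binding protein, was at 212 ± 35.3 against 28.8 ± 13.1 CPM in males (2.86, SE 0.36, adjusted p = 4.21e-08) and 173 ± 112 against 38.1 ± 21.9 CPM in females (2.13, SE 0.34, adjusted p = 6.51e-06). With ovariectomy in ASC1 2 of the 10 rose and 4 fell, in the 3 libraries that stood apart. Tnfaip6 was there at 415 ± 255 against 38.1 ± 21.9 CPM (3.43, SE 0.40, adjusted p = 7.86e-10), Vcan, of the hyaluronan-binding proteoglycan versican, at 48.9 ± 7.39 against 123 ± 20.8 CPM (adjusted p = 1.15e-05), and Hyal2, a hyaluronidase, at 17.6 ± 13.8 against 65.2 ± 26.8 CPM (adjusted p = 1.48e-05). Cemip, which takes part in hyaluronan breakdown, had no read there and 23.7 ± 8.14 CPM in controls (adjusted p = 3.33e-05). With castration in ASC2 3 of the 10 fell, where 4.30% of all genes did: Has1 to 41.2 ± 28.1 CPM (-2.04, SE 0.43, adjusted p = 0.00149), Tnfaip6 to 96.3 ± 78.8 CPM (-1.15, SE 0.31, adjusted p = 0.0160) and Has2 to 6.71 ± 4.80 CPM from 19.1 ± 8.56 CPM (adjusted p = 0.0381). In the same comparison 5 of 13 tested macrophage, 4 of 6 endothelial and 3 of 5 mesothelial genes were higher, and their part was not tested. Of the libraries compared there, 8 of 8 castrated and 4 of 8 control fit the male label. Cd44 itself did not pass in any of the 8 comparisons.

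A list of proteases and modifying enzymes of osteopontin, with thrombin and its receptor gene F2r, had 6 tested genes. Of these 1, the metalloelastase gene Mmp12, was lower in ASC1 labelled castrated (78.1 ± 33.2 against 571 ± 591 CPM, -2.84, SE 0.50, adjusted p = 2.54e-04, edgeR), where 1.30% of all genes were lower. The macrophage genes also moved there, their sum being high only in control libraries B, C and D. Of the castrated libraries 0 of 8 fit the male label. With ovariectomy in ASC1 2 of the 6 were lower, Mmp12 and F2r, where 22.1% of all genes were lower. Mmp12 was there at 0.381 ± 0.660 against 332 ± 178 CPM (adjusted p = 4.83e-06, edgeR), where 10 of 13 tested macrophage genes were lower. The part of the macrophage genes was not tested. Mmp3, of stromelysin, was the 1 gene of the 6 lower in ASC2 than in ASC1 in males (1084 ± 225 against 2069 ± 507 CPM, adjusted p = 0.00136, edgeR) and in females (826 ± 240 against 2578 ± 852 CPM, adjusted p = 2.86e-08). Of all genes 5.33% were lower there in males and 2.61% in females. F2r fell with ovariectomy in ASC1 (11.9 ± 16.7 against 132 ± 26.5 CPM, adjusted p = 4.55e-07). Of 16 tested genes of integrin adhesion signalling, 10 fell and 0 rose in the 3 ovariectomized ASC1 libraries that stood apart, where 22.1% of all genes fell (median -1.71, against -0.34 for all genes), led by Zyx, of zyxin (30.4 ± 5.98 against 304 ± 86.0 CPM, adjusted p = 6.25e-12), and Tln1, of talin, which activates integrins (43.8 ± 13.1 against 270 ± 38.4 CPM, adjusted p = 9.06e-12). Of the transcription factor genes Runx2, Sp7, Vdr and Esrra, known regulators of Spp1, 3 could be tested and 0 passed in the 8 comparisons by edgeR, with 0 at an unadjusted p below 0.05 in each.

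Markers of other cells were summed beside Spp1. The macrophage sum in control male ASC1 was 5834 to 7128 CPM in B, C and D and 669 to 765 CPM in E to H, while Spp1 was at 11071 to 12876 and 12437 to 17083 CPM. In castrated male ASC1 the sum was 711 and 751 CPM in I and J, with Spp1 at 13398 and 14138 CPM. It was 802 to 1080 CPM in K to P, with Spp1 from 5248 to 6636 CPM. The part of the macrophage genes in the Spp1 values was not tested. Csn2 and Wap, which define milk-producing mammary epithelium, had no read in any group, although 10 mammary genes together reached 1287 CPM in ovariectomized female ASC2. All 4 fibroblast genes had reads in every group.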

How the data were processed

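The authors prepared Smart-seq3 libraries from RNA of sorted cells, quantified the reads with Salmon 1.9.0 on GRCm39 transcripts after quality checks with FastQC 0.11.9, MultiQC 1.12 and STAR 2.7.10a, and deposited estimated counts per gene, not normalized, that pool reads with and without molecular identifiers. The deposited estimated counts were rounded to whole numbers, since 15% of those above 0 were not whole. Of 56953 genes, the 12465 that reached 5 reads in over 3 libraries were fitted with the quasi-likelihood model of edgeR 4.0.16 (R 4.3.3), with TMM factors and 8 group terms over all 58 libraries. P-values were adjusted by Benjamini-Hochberg over all genes tested, with 0.05 as the threshold, and the biological coefficient of variation was 35.6%. Fold changes are log2, and CPM use the TMM library sizes.

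The members and gene lists were chosen with earlier results of these data known. Named genes were the 9 members, up to 4 called genes per list and comparison by smallest adjusted p, and the 5 genes nearest to Spp1 by Pearson r, with 1 added to CPM before the logarithm. Levels per kb used the longest protein-coding GENCODE M21 transcript of GRCm38, and positions are on that build, not on the authors' GRCm39. No 2 libraries of a group agreed within sampling noise. The labels give each library a letter, and nothing states that the libraries of ASC1 and ASC2 with 1 letter share a mouse. Alternatives were RLE factors, library size alone, no count filter, a fit of the compared groups only, DESeq2 1.42.0, a replicate block, leaving out libraries, and keeping libraries whose sex-chromosome transcripts fit the label. The model was tested on simulated data.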

Additional observations from a re-analysis of the deposited data

Results flagged for a closer look

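Of 63 groups of values checked for a library far from the rest, 5 had one. Chance alone gives about 5% of the groups checked, a share and not a count. Itgav was lowest in control female ASC1 library A, at 32.8 CPM against 60.0 to 75.0 CPM in the others, and in control female ASC2 library E, at 9.50 CPM against 38.2 to 54.3 CPM. Itga4 was highest in castrated male ASC1 library J, at 8.94 CPM against 0 to 3.59 CPM, and in control female ASC1 library B, at 7.26 CPM against 0 to 3.21 CPM. Itga5 was highest in control male ASC1 library F, at 367 CPM against 262 to 300 CPM.

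For 5 receptor genes the effect of ovariectomy in ASC2 minus that in ASC1 passed the test of the difference by edgeR. Of all genes 34.8% passed it, 22.2% in the higher direction. The log2 difference was 1.06 for Itgav (adjusted p = 0.0307), 1.35 for Itgb1 (adjusted p = 6.02e-05), 2.91 for Itgb5 (adjusted p = 4.75e-04), 2.68 for Itga5 (adjusted p = 1.89e-05) and 2.86 for Itga9 (adjusted p = 0.0271). The ASC1 side of each is the 3 libraries that stood apart from the other 55, and whether the difference belongs to ovariectomy or to those libraries cannot be told apart.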

How the results depend on the processing

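Of 578 alternative fold changes of the receptors 511 kept their direction and side of the threshold, 18 lost and 20 gained a call and 29 changed sign. Of 74 for Spp1, 68 moved by less than the spread between libraries. The cause of a change was not tested.

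Keeping only libraries whose sex-chromosome transcripts fit the label moved Spp1 to 1.05 for ovariectomy in ASC2, -0.40 and 1.71 between males and females in ASC1 and ASC2, 0.45 and -1.67 between ASC2 and ASC1 in males and females, and 9.58 for the difference of the ovariectomy effects. It gave no value for castration in ASC1 or its interaction. Receptor values that changed sign under it were Itgb3 (0.02) for castration in ASC2; Itgb1 (-0.06), Itgb5 (-0.11) and Itga9 (-0.04) for ovariectomy in ASC2; Itgb1 (0.01), Itgb3 (-1.99), Itgb5 (1.72), Itga5 (-0.74) and Itga9 (1.90) between males and females in ASC1; Cd44 (-0.05), Itgav (0.24) and Itgb3 (1.35) between ASC2 and ASC1 in males; Itgb1 (0.22), Itgb3 (-1.40), Itgb5 (2.19) and Itga9 (1.16) in females; and Itgb5 (-0.08) for the difference of the ovariectomy effects. Receptor genes called became 2 for ASC2 against ASC1 in males, 1 in females and 3 for that difference. Genes called over all genes became 3 instead of 262 for ovariectomy in ASC2, 146 instead of 36 and 357 instead of 805 between males and females in ASC1 and ASC2, 161 instead of 765 for ASC2 against ASC1 in females, and 2844 instead of 4335 for the difference.

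Without a count filter 1 receptor gene was called for castration in ASC1, 1 for ovariectomy in ASC2 and 2 for ASC2 against ASC1 in males, and 81 genes between males and females in ASC1 and 460 instead of 301 for the castration difference. Fitting only the compared groups called 2 receptor genes for castration in ASC1 and 0 between males and females in ASC2, with 580 instead of 294 genes for castration in ASC1, 296 instead of 870 in ASC2 and 366 between males and females in ASC2. DESeq2 called 1 receptor gene for castration in ASC1 and 1 for ASC2 against ASC1 in females, as did RLE factors (1) and library size alone (1) for the latter. Itga4 changed sign to 0.01 for ovariectomy in ASC2 by DESeq2, and for ASC2 against ASC1 in females to -0.01, -0.04 and -0.02 by RLE, library size alone and DESeq2. Cd44 became -0.01 for ASC2 against ASC1 in males by library size alone.

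RLE factors and library size alone moved the share of calls that were lower, for ASC2 against ASC1 in females, from 42.5% to 49.4% and 54.2%, and library size alone moved it for the ovariectomy difference from 36.3% to 22.3%.

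Leaving out each ovariectomized ASC1 library gave 2 to 3 called receptor genes for ovariectomy in ASC1 (2 without L) and 3 to 4 for the difference, with 2329 and 2748 genes called without L. Over these fits Cd44 ran from -0.44 to 0.07 (without P) and Itga4 from -3.77 (without L) to 0.19 for ovariectomy in ASC1, and Itga4 from -0.35 to 3.62 for the difference. Of 26 ASC1 and ASC2 pairs with 1 letter, 5 had correlated deviations above 0.1 (range -0.17 to 0.27), so letters were not taken to pair libraries. A replicate block gave 1 called receptor gene in males and 0 in females, Spp1 at -0.02 and -0.33, Cd44 at -0.08 in males and Itga4 at -0.42 in females. Itga4, with a median of at most 4.00 reads per group, is limited by depth.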
